A study of Mus musculus with 12 samples.

Results

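The proteasome subunit genes described here are the 48 of 47730 measured features whose symbol begins with Psm, continues with a letter from a to g and ends in a number. They were followed in 12 libraries of polyA RNA, 3 in each of 4 groups. The groups were testis labelled BckdkM/M, wild-type testis (Bckdk+/+), BckdkM/M skeletal muscle and wild-type skeletal muscle, muscle being gastrocnemius and plantaris together. All animals were freely fed male mice of the C57BL/6J background at 5 to 6 months of age, the mutant allele having been backcrossed for at least 10 generations. Tissues were taken between ZT6 and ZT7, in the middle of the light phase. Bckdk encodes the kinase that switches off branched-chain amino acid breakdown. Letters stand for the mouse numbers of the columns: wild-type mice were A, B and C in both tissues, mutant mice were D, E and F in testis and D, F and G in muscle.

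The proteasome is the barrel-shaped protease that breaks down proteins tagged with ubiquitin. Its 20S core stacks rings of alpha subunits (Psma genes) around rings of beta subunits (Psmb genes), of which beta1, beta2 and beta5, encoded by Psmb6, Psmb7 and Psmb5, cut peptide bonds. The 19S cap, built from ATPases (Psmc genes) and non-ATPase subunits (most Psmd genes), recognises and unfolds the substrate. Other activators (Psme genes) and a binding protein named PI31 (Psmf1) can dock on the core, and the core and the ATPase ring are put together with the help of chaperones (Psmg genes, Psmd5, Psmd9 and Psmd10). In male germ cells of the mouse, the alpha4 subunit Psma7 has a testis paralogue, Psma8. In cells exposed to interferon, the catalytic beta subunits are exchanged for the immune subunits Psmb8, Psmb9 and Psmb10.

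Values are normalised counts, meaning counted reads scaled by a size factor for each library, and each library held 12852427 to 15795722 counted reads. In muscle, Bckdk had 14.8, 14.3 and 12.4 normalised counts in the 3 mutants, against 2214, 2421 and 2627 in the 3 wild types. In testis it had 138, 119 and 114 in the 3 libraries labelled mutant, against 68.0, 73.3 and 71.0 in the 3 wild types, so the level of the targeted gene went against the label there. The NeoR feature was higher in the labelled mutants of both tissues, at 13.1 to 19.9 against 1.76 to 3.34 in testis and 208 to 266 against 2.28 to 3.85 in muscle. Directions between genotypes in testis go by the label. The tissues carried their own markers, with 8 of 8 spermatid genes higher in testis and 8 of 8 muscle-fibre genes lower in wild types. The libraries also differed in other ways: the summed level of 10 pancreatic islet genes was 30454 to 32343 in mutant muscle F and G, against 13406 to 15759 in the other muscle libraries, and 19010 to 19168 in wild-type testis A and B, against 10424 to 13525 in the other testis libraries.

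Most proteasome subunits had lower transcript levels in testis than in muscle, and a small group stood the other way. In wild types, 44 of 47 tested members (93.6%) differed at an adjusted p below 0.05 in limma on log2(normalised count + 1), as did 87.9% of all 19994 genes tested. Of the members, 9 were higher and 35 lower in testis, whereas 50.6% of all genes were called higher and 37.3% lower. The median log2 difference was -1.31 over the members and 0.48 over all genes. The median of all genes moved with the scaling, to 0.31 with TMM and 0.95 with total reads, and the member median was then -1.48 and -0.83. The background also moved with the genes that passed the filter. With a mean of at least 50, 7082 of 14817 genes were called higher and 6212 lower, with a median of 0.19. Without wild-type testis A, 6265 were called higher and 7215 lower, with a median of -0.18. Genes seen in testis alone then missed the filter. The member medians were -1.33 and -1.32 in these 2 settings. Psmb11, the thymus beta subunit, was listed at 0 in every muscle library and at 1.01 normalised counts or less in testis, and it was not tested. In bulk tissue, fewer cells of a type and less RNA per cell cannot be told apart.

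The libraries of mutants gave a second set of values that shared no library with the first. There, 41 of 47 members were called, 8 higher and 33 lower in testis, beside 85.9% of 20021 genes called, 49.7% higher and 36.3% lower. The difference had the same sign in both genotypes for 47 of 47 members, and 41 were called in both, 33 of them lower and 8 higher. Psmd8, Psmd9 and Psmd13 were called in neither. For Psmd8, Psmd13 and Psmg2 in both genotypes, and for Psmd9 and Psmd10 in wild types, the sign of the difference depended on how libraries were scaled.

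**Figure D1:**
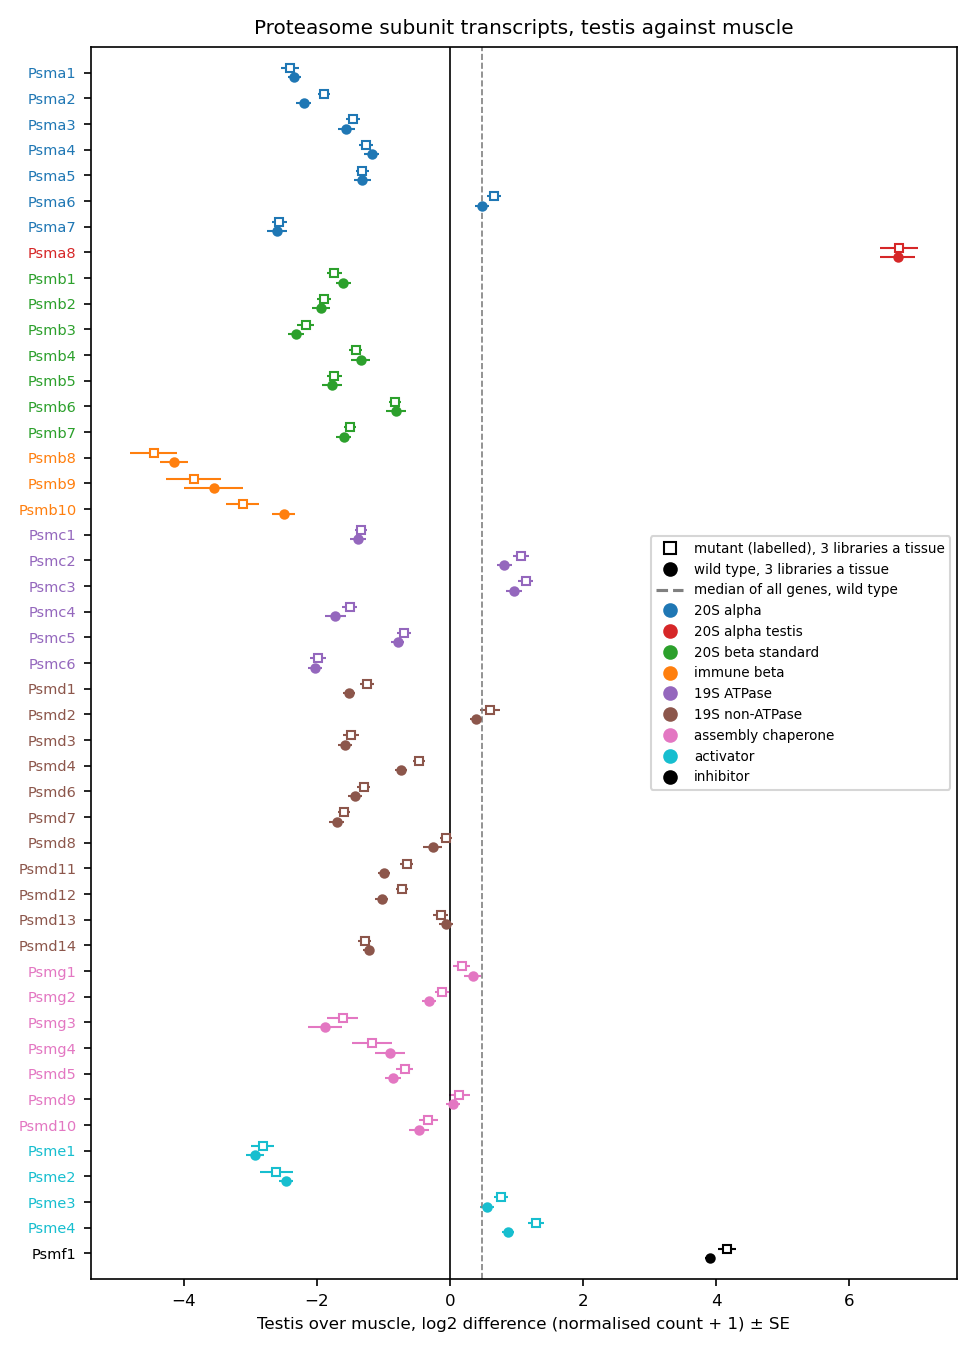
Log2 difference of testis over muscle (x axis, with standard error) for the 47 tested proteasome genes, in mutants (open squares) and wild types (filled circles), coloured by role; the dashed line is the median of all genes in wild types. Psma8 at 6.73 and Psmf1 at 3.91 stand to the right, and Psmb8 at -4.15 and Psmb9 at -3.55 to the left, of the other members (wild-type values).

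Among the alpha subunits of the core, Psma6 was higher in testis and Psma1 to Psma5 and Psma7 were lower. Psma7, which encodes the alpha4 subunit of most cells, had 258, 295 and 250 normalised counts in testis labelled mutant and 231, 259 and 242 in wild-type testis, against 1484, 1589 and 1691 in mutant muscle and 1293, 1333 and 1887 in wild-type muscle. All testis libraries were below all muscle libraries, and the log2 difference in wild types was -2.60 ± 0.15 (SE, adjusted p = 5.39e-07). Psma8 (chromosome 18), its testis paralogue, had 1397, 1572 and 1517 normalised counts in testis labelled mutant and 1381, 1343 and 1508 in wild-type testis, against 19.4, 8.15 and 13.5 in mutant muscle and 9.11, 19.5 and 10.3 in wild-type muscle. Its mean was 109-fold higher in testis than in muscle in wild types, a log2 difference of 6.73 ± 0.26 (SE, adjusted p = 6.46e-08).

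Per kilobase of exon, Psma8 made up most of the alpha4 pair in testis. Its share of Psma7 plus Psma8 was 74.5, 74.2 and 76.6% in testis labelled mutant and 76.3, 73.7 and 77.1% in wild-type testis. The groups overlapped, and their means differed by -0.594 percentage points (exact permutation test, two-sided, p = 0.9, the smallest possible being 0.1). In muscle the share was 0.276 to 0.701% in mutants and 0.293 to 0.783% in wild types. The summed level of the pair was 1108 to 1252 normalised counts per kb in testis labelled mutant and 1069 to 1156 in wild-type testis, against 1635 to 1858 in mutant muscle and 1420 to 2071 in wild-type muscle. Psma8 in muscle was 0.578 to 1.38% of its wild-type testis mean, and 16 other germ-cell genes had medians of 0.365 to 1.49% of theirs in the same libraries; the part of testis RNA in the muscle values was not tested.

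Psma6 (alpha1) was the alpha subunit with the highest level in both tissues and of the 7 common ones the one that was higher in testis. It had 4601, 4626 and 4676 normalised counts in testis labelled mutant and 4224, 4052 and 4301 in wild-type testis, against 3199, 2734 and 2871 in mutant muscle and 2760, 2803 and 3475 in wild-type muscle. The log2 difference between tissues was 0.48 ± 0.10 in wild types (SE, adjusted p = 0.0022), close to the median of all genes. In mutants the difference was 0.66 ± 0.10 (SE), above the median of all genes there, 0.48. Psma2 (alpha2) was the lowest per kilobase in both tissues, at 87.8 ± 5.9 normalised counts per kb in wild-type testis and 407 ± 56 in wild-type muscle (SD, n = 3). Not divided by length, Psma7 was the lowest in wild-type testis, with a mean of 244 normalised counts against 256 for Psma2. Psma1, Psma3, Psma4 and Psma5 were 2.28 to 5.07-fold lower in wild-type testis.

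The 7 standard beta subunits were lower in testis without exception. Their log2 differences in wild types lay between -2.31 (Psmb3) and -0.81 (Psmb6), with a median of -1.60. Psmb5 (beta5, the chymotrypsin-like site) had 610, 684 and 540 normalised counts in testis labelled mutant and 631, 568 and 511 in wild-type testis, against 1934, 2063 and 2112 in mutant muscle and 1712, 1739 and 2462 in wild-type muscle. Psmb6 (beta1, the caspase-like site) had 1261, 1419 and 1342 in testis labelled mutant and 1295, 1132 and 1137 in wild-type testis, against 2300, 2496 and 2333 in mutant muscle and 1833, 1823 and 2674 in wild-type muscle. For both genes every testis library was below every muscle library. Psmb7 (beta2, the trypsin-like site) had 1361, 1493 and 1361 in testis labelled mutant and 1384, 1224 and 1283 in wild-type testis, against 3999, 3920 and 4059 in mutant muscle and 3637, 3561 and 4626 in wild-type muscle. It was 3.04-fold lower in wild-type testis. The exons of Psmb7 overlap by 405 bases those of Nek6 on the other strand. Nek6 had means of 2362 normalised counts in wild-type muscle and 730 in wild-type testis, and its part in the Psmb7 values was not tested.

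Among the immune subunits, Psmb8 and Psmb9 had the largest negative differences of all members, and Psmb10 was lower as well. Psmb8 (beta5i) had 12.1, 12.4 and 11.5 normalised counts in testis labelled mutant and 10.6, 12.5 and 11.7 in wild-type testis, against 243, 197 and 480 in mutant muscle and 232, 226 and 207 in wild-type muscle. Psmb9 (beta1i) had 7.06, 11.6 and 8.88 in testis labelled mutant and 4.41, 15.0 and 8.35 in wild-type testis, against 107, 107 and 259 in mutant muscle and 158, 92.0 and 87.3 in wild-type muscle. Psmb10 (beta2i) had 49.4, 33.1 and 33.7 in testis labelled mutant and 52.9, 59.1 and 42.6 in wild-type testis, against 266, 348 and 414 in mutant muscle and 299, 266 and 316 in wild-type muscle. In wild types the log2 differences were -4.15 ± 0.21, -3.55 ± 0.44 and -2.50 ± 0.17 for Psmb8, Psmb9 and Psmb10 (SE, adjusted p at most 8.16e-05). Leukocyte markers were lower in testis too, in 9 of 9 tested genes, with sums of 538 to 586 in wild-type testis and 5067 to 5465 in wild-type muscle, and their part in the result was not tested.

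Mutant muscle G was the highest library for all 3 immune subunits. The share of Psmb8 to Psmb10 among the catalytic beta subunits, per kilobase, was 4.84% in D, 5.02% in F and 8.38% in G among mutant muscles, and 6.24% in A, 5.33% in B and 4.11% in C among wild types. The groups overlapped and the means differed by 0.855 percentage points (exact permutation test, two-sided, p = 0.7); without mutant G the difference was -0.295. The summed level of 10 antigen presentation genes ranked the 6 muscle libraries in the same order, at 11226 in D, 11834 in F and 19500 in G for mutants and at 14948 in A, 12954 in B and 9766 in C for wild types. Among 10 leukocyte genes, 8 had values above 0 between mutant and wild-type muscle and 0 were called. Ptprc (208), C1qa (622) and Lyz2 (2118 normalised counts) were highest in G of the 6 muscle libraries, and Ighm, an antibody heavy chain of B cells, was lowest in G, at 981. The other genes of the leukocyte list are not given here one by one. The leukocyte sum, of which Ighm is a large part, was 4716 in G. That was above 4070 in D and below 4864 in F and the 5067 to 5465 of wild types. The part of these cells in the immune subunit levels was not tested. In testis the immune share was 1.45, 1.07 and 1.13% in the libraries labelled mutant and 1.41, 2.02 and 1.46% in wild types, a difference of -0.411 points (exact permutation test, two-sided, p = 0.2).

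**Figure D2:**
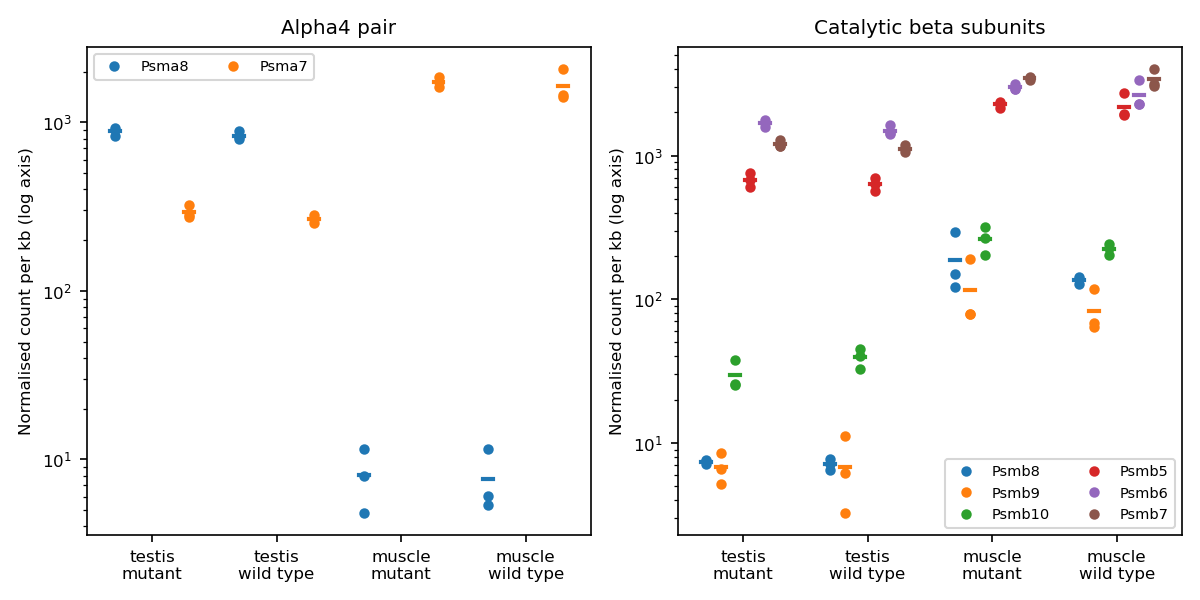
Normalised count per kilobase of exon (log axis) in each library, as points, with the group mean as a bar, for Psma8 and Psma7 (left) and the immune and standard catalytic beta subunits (right), in 4 groups of 3 libraries. Psma8 lies above Psma7 in testis and below it in muscle, and Psmb8 to Psmb10 lie below Psmb5 to Psmb7 in all groups.

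The 6 ATPases of the 19S cap form 1 ring in equal numbers, and their transcripts split by tissue. Psmc3 (Rpt5) and Psmc2 (Rpt1) were higher in testis and Psmc1, Psmc4, Psmc5 and Psmc6 were lower. Psmc3 had 8004, 8155 and 7730 normalised counts in testis labelled mutant and 7386, 7448 and 7074 in wild-type testis, against 4027, 3595 and 3275 in mutant muscle and 3415, 3398 and 4483 in wild-type muscle, and the log2 difference in wild types was 0.97 ± 0.12 (SE, adjusted p = 7.59e-05). The exons of Psmc3 overlap by 215 bases those of Slc39a13 on the other strand, whose group means were 459 normalised counts or less. Psmc2 had 4781, 4897 and 4743 in testis labelled mutant and 4690, 4414 and 4526 in wild-type testis, against 2606, 2366 and 1956 in mutant muscle and 2277, 2452 and 3070 in wild-type muscle. Psmc6 (Rpt4) was the lowest ATPase per kilobase and 4.11-fold lower in wild-type testis.

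Of the 11 non-ATPase subunits, Psmd2 (Rpn1, the docking site of ubiquitin shuttles) was higher in testis, 8 were lower and Psmd8 and Psmd13 were not called in wild types. Psmd2 had 5901, 6225 and 6124 normalised counts in testis labelled mutant and 6253, 6241 and 6127 in wild-type testis, against 4683, 4235 and 3252 in mutant muscle and 4649, 4338 and 5210 in wild-type muscle. The log2 difference of Psmd2 in wild types, 0.40, was below the median of all genes, 0.48, and its call was lost with edgeR. That median was 0.19 with a mean of at least 50 as the filter. In mutants the difference of Psmd2 was 0.60, above the median of all genes there, 0.48. Psmd14, the deubiquitinase of the cap, was 2.34-fold lower in wild-type testis, and Psmd4, a ubiquitin receptor, was 1.66-fold lower. Psmd13 overlaps Sirt3 on the other strand by 342 bases, and how strand was treated in counting is not given in the sources used here.

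The assembly chaperones had the smallest median difference of the roles with more than 1 member. In wild types Psmg3, Psmg4, Psmd5, Psmg2 and Psmd10 were called lower and Psmg1 higher, with log2 differences of -1.88, -0.90, -0.86, -0.31, -0.46 and 0.34 in that order. The Psmg1 call was lost in 11 alternatives, among them TMM, the median of ratios, edgeR, DESeq2 and the replicate block, and the calls of Psmg2 and Psmd10 were each lost in 3, total reads among them. The median was -0.46. In mutants 3 of the 7 were called, all lower, and Psmg1 was at 0.17 ± 0.13 (SE, adjusted p = 0.246).

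**Figure D3:**
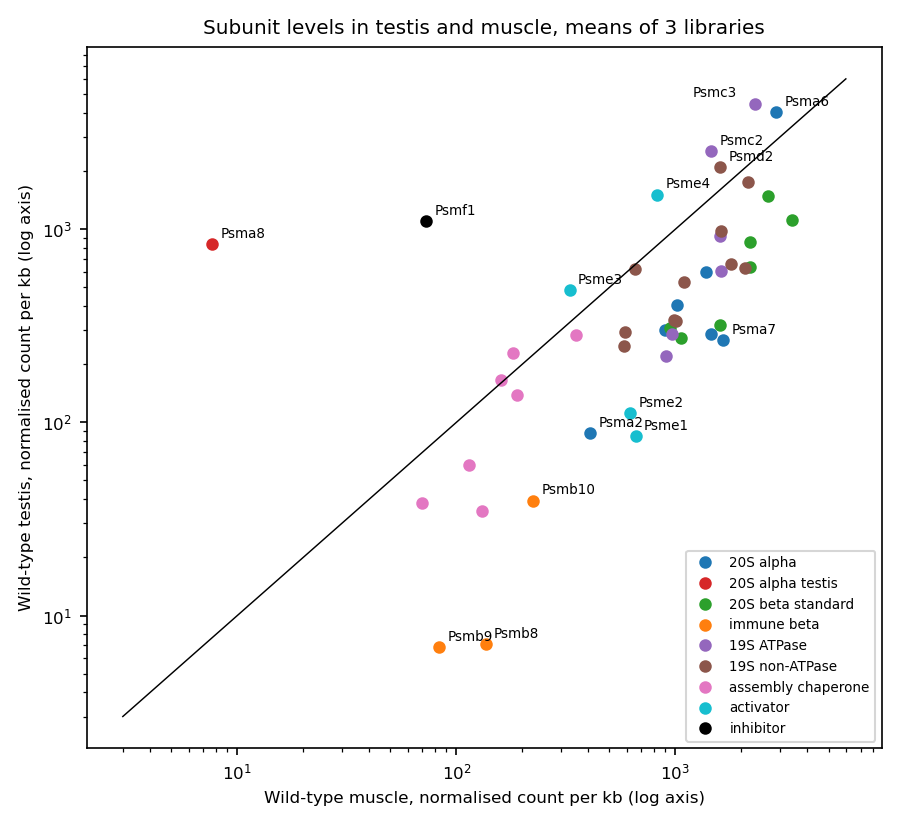
Mean normalised count per kilobase in wild-type testis (y axis) against wild-type muscle (x axis), both log axes, for the 47 members other than Psmb11, each the mean of 3 libraries; the line marks equal levels. Most members lie below the line, and Psmf1, Psma8, Psme4, Psmc3 and Psmc2 are among those above it.

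The activators divided into 2 pairs. Psme1 and Psme2, the interferon-responsive PA28 alpha and beta subunits, were lower in testis. Psme1 had 133, 103 and 97.7 normalised counts in testis labelled mutant and 90.9, 97.5 and 95.2 in wild-type testis, against 741, 693 and 932 in mutant muscle and 614, 763 and 820 in wild-type muscle. Psme2 had 90.7, 133 and 103 in testis labelled mutant and 103, 112 and 106 in wild-type testis, against 515, 589 and 952 in mutant muscle and 634, 575 and 580 in wild-type muscle. In wild-type testis they were 7.75-fold and 5.57-fold lower. A near-identical copy of Psme2, Psme2b, was at most 4.53% of its level.

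Psme3 and Psme4 were higher in testis. Psme3 encodes PA28 gamma, a nuclear activator, and had 1340, 1392 and 1338 normalised counts in testis labelled mutant and 1331, 1209 and 1310 in wild-type testis, against 871, 824 and 707 in mutant muscle and 768, 845 and 1014 in wild-type muscle. Psme4 encodes PA200, an activator known in mouse spermatids for the breakdown of acetylated histones. It had 10042, 9215 and 10790 in testis labelled mutant and 9280, 9791 and 10324 in wild-type testis, against 4402, 3897 and 3987 in mutant muscle and 5444, 5009 and 5642 in wild-type muscle. The log2 differences in wild types were 0.56 ± 0.11 for Psme3 (SE, adjusted p = 0.00133) and 0.87 ± 0.09 for Psme4 (SE, adjusted p = 2.65e-05). The value of Psme3 was close to the median of all genes, 0.48, in wild types. In mutants it was 0.77, above the median there, also 0.48.

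Psmf1 encodes PI31, a proline-rich protein first described as an inhibitor of the core. It had 4441, 4743 and 4515 normalised counts in testis labelled mutant and 4238, 4270 and 4094 in wild-type testis, against 303, 248 and 217 in mutant muscle and 260, 278 and 297 in wild-type muscle. Its log2 difference was 3.91 ± 0.08 in wild types and 4.17 ± 0.13 in mutants (SE, adjusted p = 2.32e-09 and 1.07e-07), the largest after Psma8 among the members that were higher in testis. Per kilobase its level in wild-type testis, 1103 ± 25, was above that of Psmb5, 634 ± 67, and in wild-type muscle, 73.0 ± 4.9, it was below that of Psmb5, 2193 ± 474 (SD, n = 3 each).

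The promoter windows of 4 members that differ in their tissue pattern are shown from RefSeq on GRCm38.p6, covering 250 bases before the annotated start and 50 after it. Psmf1 (chr2:151741261-151741560, minus strand) and Psme4 (chr11:30771525-30771824, plus strand) were higher in testis, and Psma7 (chr2:180042415-180042714, minus strand) and Psmb5 (chr14:54617946-54618245, minus strand) were lower. Capitals mark the core of the antioxidant response element, TGACNNNGC, which NFE2L1 (Nrf1) can bind in proteasome promoters, and the CCAAT box, CCAAT, on either strand.
Psmf1: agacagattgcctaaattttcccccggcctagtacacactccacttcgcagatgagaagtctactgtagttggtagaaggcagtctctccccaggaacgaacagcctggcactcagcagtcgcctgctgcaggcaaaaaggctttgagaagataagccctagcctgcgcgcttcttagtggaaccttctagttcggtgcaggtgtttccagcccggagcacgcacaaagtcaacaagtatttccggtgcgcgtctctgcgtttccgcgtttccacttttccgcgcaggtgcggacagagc
Psme4: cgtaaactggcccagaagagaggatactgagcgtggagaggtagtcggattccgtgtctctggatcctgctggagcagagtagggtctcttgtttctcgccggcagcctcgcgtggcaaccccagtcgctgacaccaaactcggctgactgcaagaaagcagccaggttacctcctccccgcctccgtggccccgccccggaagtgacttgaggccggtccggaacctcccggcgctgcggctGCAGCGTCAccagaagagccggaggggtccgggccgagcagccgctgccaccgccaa
Psma7: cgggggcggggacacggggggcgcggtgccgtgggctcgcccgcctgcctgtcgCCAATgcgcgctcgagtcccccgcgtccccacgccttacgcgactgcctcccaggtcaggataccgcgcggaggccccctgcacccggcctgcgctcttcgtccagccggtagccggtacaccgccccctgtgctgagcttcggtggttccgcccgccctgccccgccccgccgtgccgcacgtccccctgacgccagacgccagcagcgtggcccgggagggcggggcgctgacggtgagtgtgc
Psmb5: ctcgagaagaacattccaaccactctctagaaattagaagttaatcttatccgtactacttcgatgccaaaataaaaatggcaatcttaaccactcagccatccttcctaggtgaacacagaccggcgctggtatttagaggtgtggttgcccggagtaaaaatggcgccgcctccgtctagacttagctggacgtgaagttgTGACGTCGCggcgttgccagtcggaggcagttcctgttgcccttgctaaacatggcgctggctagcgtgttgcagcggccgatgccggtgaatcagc
The Psmb5 window holds TGACGTCGC on its plus strand and the Psme4 window holds the motif on its minus strand. RefSeq windows were matched for 40 of the 48 members, 43 windows in all, since Psma6, Psmc2 and Psme2 have more than 1. The TGACNNNGC motif was in 6 of 43 windows (13.95%), those of Psmb5, Psmb6, Psmc6, Psmd12, Psmd9 and Psme4, against 12.39% of 32851 windows of the same length. CCAAT was in 14 of 43 (32.56%) against 37.41%. No motif overlapped another in the 4 windows shown.

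Subunits that sit in the complex in equal numbers had less equal transcript levels in testis. Per kilobase, the highest of the 7 common alpha subunits exceeded the lowest 45.8-fold in wild-type testis (Psma6 over Psma2) and 7.11-fold in wild-type muscle. For the ATPases the ratio was 20.2 in wild-type testis (Psmc3 over Psmc6) and 2.54 in wild-type muscle. It was 8.39 in wild-type testis and 3.67 in wild-type muscle for the non-ATPase subunits, and 5.44 in wild-type testis and 3.60 in wild-type muscle for the standard beta subunits. In mutants the alpha ratio was 35.8 in testis and 6.09 in muscle, and the ATPase ratio 20.8 in testis and 2.37 in muscle. These ratios carry no test, and exon length was that of the principal transcript. That length was 2911 bases for Psma2 and 1042 for Psma6, and the alpha ratios depend on it. Not divided by length, their means were 256 and 4192 normalised counts in wild-type testis, and 1184 and 3013 in wild-type muscle.

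Genes that act with the proteasome differed between tissues in both directions. Beside the counts below, 50.6% of all genes were called higher and 37.3% lower in wild-type testis, and the lists themselves were not tested. Those shares depend on the filter, as given above. Of 8 control and assembly genes, 6 were lower in wild-type testis, among them Nfe2l1, the transcription factor that raises proteasome genes when the proteasome is impaired (log2 difference -3.09), Ddi2, the protease that activates it (-2.34), Ecpas (-2.09) and the core maturation factor Pomp (-2.01). Ngly1, which removes sugars from Nfe2l1, was higher (1.91), as was Akirin2 (1.12), an adapter for import of proteasomes into the nucleus. Of 7 further subunits and partners, 2 were higher and 5 lower, including Zfand5 (-4.07). Of 13 ubiquitin shuttles, 9 were higher, among them Ddi1, with means of 2313 normalised counts in wild-type testis and 17.2 in wild-type muscle, Ubqlnl (log2 difference 6.76) and Ubqln5 (6.46). Of 10 antigen presentation genes, 8 were lower, 1 was higher and 1 was not called; Tap2 (-3.72), H2-D1 (-3.65), Irf1 (-3.42) and B2m (-3.31) were the lowest. Ubiquitin and E1 genes counted 2 higher (Uba6, 0.97, and Ubb, 0.92) and 4 lower of 6.

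In muscle, no proteasome subunit passed the test between genotypes. Of 47 tested members 0 were called, by limma, edgeR and DESeq2 alike, beside 6 of 16246 genes (0.0369%) by limma. At an unadjusted p below 0.05 there was 1 member, beside 9.52% of all genes. The log2 change was above 0 for 26 members (55.3%, beside 44.5% of all genes) and below 0 for 21, with a median of 0.04 against -0.04 for all genes. With scaling by total reads the median of all genes was 0.07 and that of the members 0.15, with 37 above 0.

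Psme4 was that member. Its 4402, 3897 and 3987 normalised counts in mutants were all below the 5444, 5009 and 5642 of wild types, a log2 change of -0.39 ± 0.13 (SE, unadjusted p = 0.0144, adjusted p = 0.519). The adjusted p ranged from 0.113 to 1.00 over the alternatives and the change from -0.44 to -0.28. It was the 1 member of 47 whose groups did not overlap (2.13%), beside 14% of all genes, and 8.85% of all genes on the lower side. The next smallest p values belonged to Psma4 (log2 change 0.27), Psmd11 (-0.23), Psma2 (0.19) and Psmd2 (-0.23), whose groups overlapped. All 7 standard beta subunits had values above 0 (median 0.13), beside 44.5% of all genes. Of 11 non-ATPase subunits, 9 had values below 0, with a median of -0.08 against -0.04 for all genes. With scaling by total reads, Psmd4 and Psmd8 moved above 0 (0.02 and 0.06), while Psmd2 and Psmd11 stayed below (-0.13 and -0.12).

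Wild-type muscle C stood apart from A and B. It was the highest wild-type library in 42 of 47 members (89.4%), against 45.8% of all genes. Relative to the wild-type mean, the median member was at 0.02 (log2) in D, -0.02 in F and 0.06 in G for mutants and at -0.12 in A, -0.10 in B and 0.21 in C for wild types. Without C, 35 members were above 0 and 12 below, with a median of 0.13. Without A the counts were 18 and 29, and without B 21 and 26. At an unadjusted p below 0.05 there were 5 members without C and 0 without A. Without the mutants high in islet genes, F and G, 32 members were above 0, with a median of 0.02. D was then the single mutant library, so a test there takes its spread from the 3 wild types and assumes that D varies like them, and by it 0 were called.

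In testis, again no member passed the test, while small differences mostly lay on 1 side. Of 46 tested members 0 were called by limma, edgeR or DESeq2, beside 4 of 19543 genes (0.0205%) by limma. The log2 change was above 0 for 41 members, or 89.1%, and for 59.6% of all genes, with medians of 0.10 and 0.03. At an unadjusted p below 0.05 there were 11 members, all above 0, beside 7.09% of all genes. With total reads as the scale the count was 1, with TMM 5 and with the median of ratios 6, and 32, 37 and 37 members were above 0. By edgeR it was 4, by DESeq2 1 and in the fit of all 12 libraries 2, with 35, 35 and 41 members above 0. The count was 5 without wild-type B and 6 without wild-type C. Without the wild types high in islet genes, A and B, it was 3, and 37 members were above 0 with a median of 0.09. C was then the single wild-type library, assumed to vary like the 3 labelled mutants.

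Groups did not overlap for 17 of 46 members (37.0%), each with the labelled mutants above the wild types, beside 9.72% of all genes on that side and 13.4% on either. They were Psma2, Psma3, Psma4, Psma6 and Psmb3 of the core, Psmc2, Psmc3, Psmd4, Psmd6, Psmd8 and Psmd13 of the cap, the chaperones Psmg2, Psmg3 and Psmd5, the activators Psme1 and Psme3, and Psmf1. Overlap was read on the deposited scaling alone. Some gaps were small, as for Psmc2, with 4743 in the lowest labelled mutant and 4690 in the highest wild type. Most markers of germ cells, muscle fibres and Leydig cells also had values above 0, beside 59.6% of all genes. The sum of 8 spermatocyte genes was 56544 to 58031 in testis labelled mutant and 52064 to 54884 in wild-type testis. The sum of 8 spermatid genes was 166751 to 179962 in testis labelled mutant and 150713 to 167502 in wild-type testis, where the groups overlapped. All 8 muscle-fibre genes had values above 0 (median log2 change 2.29), with sums of 13648, 12244 and 12685 in testis labelled mutant, against 5932 in wild-type A, 267 in B and 13868 in C. The groups overlapped. Of 6 Leydig cell genes 5 had values above 0 (median 0.22). Of these 4 lists, 0 genes were called. Among other lists, 5 of 6 Sertoli cell genes were above 0, against 3 of 7 tested leukocyte genes and 1 of 10 islet genes. The part of all these cells in the result was not tested.

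Psma2 had the smallest p in testis. It had 380, 339 and 365 normalised counts in the libraries labelled mutant, against 266, 236 and 266 in wild types, a log2 change of 0.50 ± 0.10 (SE, unadjusted p = 2.14e-04, adjusted p = 0.349). Over the alternatives the change was 0.44 to 0.54 and the adjusted p 0.0847 to 0.998. Next came Psmd8 (log2 change 0.15), with 2928, 3128 and 3025 in the libraries labelled mutant, against 2720, 2715 and 2719 in wild types. Psma6 (0.15), Psmd4 (0.18) and Psmb3 (0.27) followed, each with an adjusted p of 0.696. Psmb9 and Psmb11 were below the filter of 10 normalised counts in 3 libraries.

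**Figure D4:**
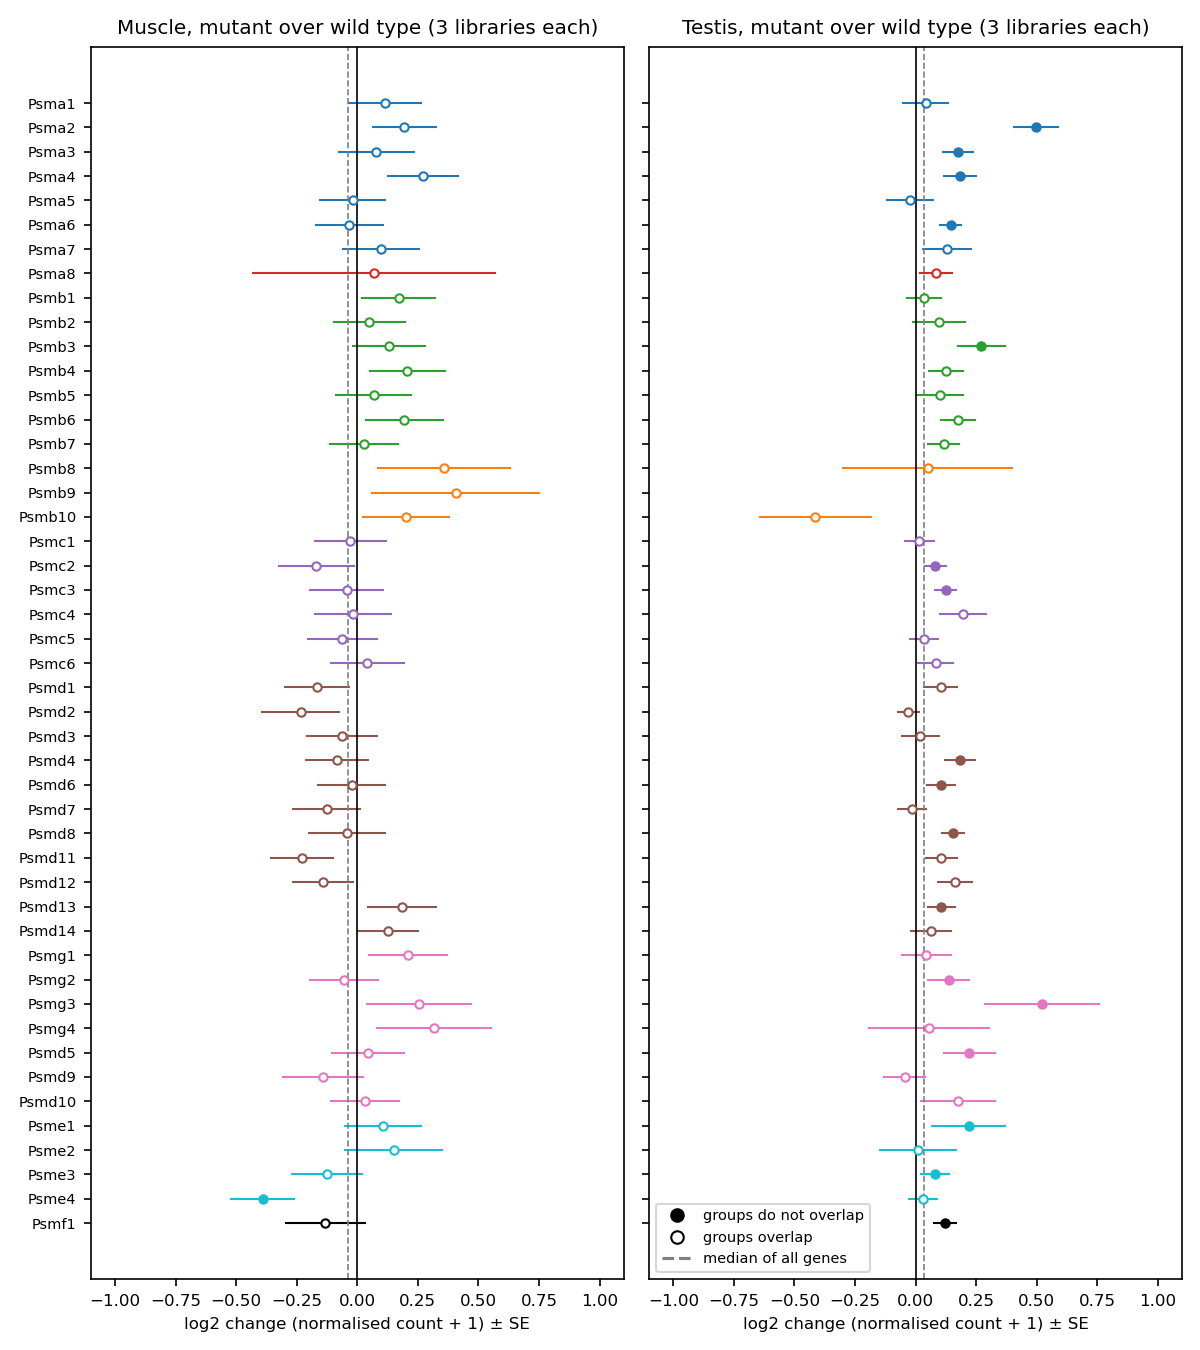
Log2 change of mutant over wild type with standard error (x axis) for each member, in muscle (left) and in testis by label (right); filled points are members whose groups do not overlap, and the dashed line is the median of all genes. No member passed the adjusted test, and the filled points number 1 in muscle and 17 in testis. Filled and open points together, 26 of 47 members are above 0 in muscle and 41 of 46 in testis.

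No member passed the test of a difference in genotype change between muscle and testis. Taken as the muscle change minus the testis change, 0 of 46 members were called by limma, edgeR or DESeq2, beside 2 of 14677 genes (0.0136%) by limma, and 3 had an unadjusted p below 0.05, beside 8.69% of all genes. These were Psme4 (-0.42 ± 0.15), Psmd11 (-0.33 ± 0.14) and Psmd12 (-0.30 ± 0.14, SE), each with an adjusted p of 0.574. Psmb10 (0.62) and Psmd4 (-0.27) came next. The median over members was -0.10, against -0.08 over all genes, and was 0.07 with scaling by total reads and -0.01 without wild-type muscle C. None of the related genes was called between genotypes in either tissue or in the difference.

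Reads could be shared between members and other loci in places. For 11 members, GENCODE holds a copy at 95% identity or more over 300 bases or more. Apart from Sirt3, which overlaps Psmd13, the copies with a measured level were at most 5.01% of their member. The exons of 11 members overlap a gene on the other strand, among them Psmb7 with Nek6, Psmb8 with the antisense gene Gm20496 and Psmb9 with Tap1, which was itself lower in testis.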

How the data were processed

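RNA of 12 libraries was sequenced as paired reads after polyA selection, per the labels' protocols. Build GRCm38.p4, HTSeq 0.11.2, HISAT2 2.1.0, DESeq2 1.46.0, fastp 0.23.4 and Picard 1.119 are listed in the submitters' processing notes, with no role given. The deposited signal values are read counts that the authors divided by 1 size factor per library, per the file headers. With the worth of 1 read found per library, 100% of values came out as whole reads to within 0.001, and these gave depths of 12852427 to 15795722. In testis D, 26 cells held dates and were left out, none of them in a member. A second deposited table, of rlog values, was not used here.

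Genes with at least 10 normalised counts in at least 3 of the 6 libraries compared were tested on log2(value + 1) with limma 3.58.1 (trend, two-sided) in R 4.3.3, with Benjamini-Hochberg adjustment over all genes tested; a gene was called below 0.05. Directions are testis over muscle and mutant over wild type, and the difference between tissues is the interaction term over 12 libraries. Shares were compared by exact permutation over libraries, where 3 against 3 cannot go below 0.1. Levels between genes were divided by the exon length of the principal transcript in GENCODE M21 (GRCm38). Copies were searched with BLAST 2.17.0+. The test was run on simulated counts, drawn independently for each gene with the same dispersion for all. Real libraries can shift many genes together, so that run does not show how the test performs on these data.

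Other settings were a pseudocount of 0.5 or 8, dropping the filter or requiring a mean of 50, scaling by TMM, median of ratios or total reads, edgeR 4.0.16 and DESeq2 1.42.0 on recovered reads, each library left out, libraries high in islet genes left out, the mouse as a block, and a fit of 12 libraries. Union exon length was added after seeing the data. The members and lists were chosen with earlier results of these data known. The rule for naming took the paralogue, activator and inhibitor genes, the 5 members with the smallest p in each genotype comparison, the 5 largest called differences in each direction between tissues, and at most 4 called genes per related list. Others, such as the members whose groups did not overlap, were named after their values were seen. Mouse numbers in the columns link 5 of 7 mice across tissues (2 of them mutant), with correlations of deviations of -0.036 to 0.009 over 14677 genes. Whether animals of 1 group were littermates is not given in the sources used here. The values of 1 gene of the related lists are not reported here.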

Additional observations from a re-analysis of the deposited data

How the results depend on the processing

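Under every alternative, 0 members were called between genotypes in muscle, in testis and in the difference between tissues, though leaving out the libraries high in islet genes kept 1 library in an arm, assumed to vary like the other groups. Between tissues, 41 to 45 members were called in wild types and 40 to 44 in mutants, and the difference between the member median and that of all genes stayed below 0, at -2.04 to -1.04 and -2.00 to -1.07. With the mouse as a replicate block, 43 members were called in wild types and 40 in mutants (where only 2 mice could enter), and 0 in the difference. No paired analysis was possible for the genotype comparisons because the groups are different animals.

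The differences in the immune share in muscle and in the Psma8 share in testis changed sign when 1 library was left out. That in the immune share in testis did not (range -0.526 to -0.216). The immune share in muscle differed by -0.295 points without mutant G (range over single libraries left out -0.295 to 1.48), and the Psma8 share in testis differed by 0.0966 points without wild-type C (range -1.60 to 0.0966); the cause was not tested. The member median between genotypes in muscle, 0.04, was -0.03 without wild-type A and -0.02 without wild-type B, and that of the difference in genotype change between muscle and testis, -0.10, was 0.07 with total reads. Members whose tissue difference changed sign with the scaling numbered 5 in wild types and 3 in mutants. Of all genes, not members, the number called moved more: 6 in muscle, with 3 to 34 under other settings and 497 without mutant D, 4 in testis, with 1 to 10, and 2 in the difference, with 1 to 50 and 951 without mutant muscle D.

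With 3 libraries a group, median standard errors of members were 0.15 in muscle and 0.07 in testis (log2). Changes well above that size also went uncalled, such as Psma2 in testis (0.50 ± 0.10) and Psme4 in muscle (-0.39 ± 0.13, SE). The absence of calls therefore does not exclude changes of such sizes. Testis labels are at odds with the Bckdk level. Psmb8 and Psmb9 in testis rest on 4.41 to 15.0 normalised counts.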
